A study of Drosophila melanogaster with 3 samples.

Results

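Chromosome 4 of Drosophila melanogaster carried 352 of the 30000 regions that the authors listed for Su(var)3-7-GFP over 3 pooled replicates. They were all regions of the pooled relaxed list (peaks and background together, genome build dm6) on that chromosome. A stricter list of 4055 peaks had passed the authors' reproducibility threshold, and 19 of these lay on chromosome 4. They and 5 further regions that overlapped one of them by at least 1 bp are called the 24 thresholded regions here. Those 5 had not passed the threshold themselves. The other 328 regions overlapped none of the peaks. The data were ChIP-seq of whole, mixed-sex embryos aged 0 to 24 h, from a transgenic line that expresses Su(var)3-7 with GFP at its C-terminus, precipitated with an antibody to GFP after sonication. All samples belonged to 1 group of 3 biological replicates, so every comparison is between regions, not between conditions. Whole embryos of this age span hold many cell types and stages, which the lists average. Whether an untagged copy of the protein was also present, and how many reads lie behind each list, is not stated in the sources used here.

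Su(var)3-7 is a zinc-finger protein that binds heterochromatin together with HP1, and its dose alters position-effect variegation, the silencing of genes placed next to heterochromatin. Chromosome 4 is the smallest autosome. Its gene-bearing arm is unusual in that active genes lie interspersed with transposon remnants and with chromatin that carries HP1 and other heterochromatin marks, and the arm has a chromosome-specific binding protein, POF. Among its genes are well-known developmental regulators such as ey and ci and housekeeping genes such as RpS3A.

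The first sequences shown are those of the strongest thresholded peaks of chromosome 4 that lie between genes, from the RefSeq genome on dm6, plus strand, with the 21 bases centred on the summit (the point of highest signal) in capitals. They are the peak between dati and lgs (chr4:424695-424955, the whole peak), the peak upstream of zfh2 (chr4:497793-497998, the whole peak), the peak upstream of pho (chr4:1182072-1182230, the whole peak) and the middle of the peak upstream of fuss (chr4:982855-983055).
lgs peak: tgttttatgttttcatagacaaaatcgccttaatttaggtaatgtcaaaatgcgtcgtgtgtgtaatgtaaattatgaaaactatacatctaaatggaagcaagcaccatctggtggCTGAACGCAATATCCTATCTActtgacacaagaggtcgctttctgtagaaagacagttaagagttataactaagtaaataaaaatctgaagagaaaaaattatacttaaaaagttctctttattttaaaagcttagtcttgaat
zfh2 peak: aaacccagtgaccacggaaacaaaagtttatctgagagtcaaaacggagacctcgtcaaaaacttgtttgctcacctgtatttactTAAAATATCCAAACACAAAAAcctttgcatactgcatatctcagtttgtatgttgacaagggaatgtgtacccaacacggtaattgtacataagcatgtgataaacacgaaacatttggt
pho peak: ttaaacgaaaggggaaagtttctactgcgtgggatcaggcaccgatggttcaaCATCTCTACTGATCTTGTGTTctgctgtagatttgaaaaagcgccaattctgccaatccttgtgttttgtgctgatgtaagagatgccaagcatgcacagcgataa
fuss peak: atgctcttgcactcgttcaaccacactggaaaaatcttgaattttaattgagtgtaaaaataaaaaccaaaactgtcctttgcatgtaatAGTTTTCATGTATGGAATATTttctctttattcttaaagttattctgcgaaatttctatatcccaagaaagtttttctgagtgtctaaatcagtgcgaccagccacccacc

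The next ones show what lay under weaker peaks and under regions that did not reach the threshold, again on dm6, plus strand. In the 201 bases around the PlexA summit (chr4:1027152-1027352) and the ey summit (chr4:696845-697045) the capitals mark the DRE letters TATCGATA, which both peaks held. In the 151 bases around the summit of the region at CG11155 (chr4:1126305-1126455, not thresholded) the capitals mark the 99 bases annotated as INE-1, the transposon remnant with the most copies on this chromosome.
PlexA peak: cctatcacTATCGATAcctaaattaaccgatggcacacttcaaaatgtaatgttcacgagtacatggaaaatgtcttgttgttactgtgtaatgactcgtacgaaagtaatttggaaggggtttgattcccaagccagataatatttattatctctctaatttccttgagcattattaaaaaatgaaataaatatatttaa
ey peak: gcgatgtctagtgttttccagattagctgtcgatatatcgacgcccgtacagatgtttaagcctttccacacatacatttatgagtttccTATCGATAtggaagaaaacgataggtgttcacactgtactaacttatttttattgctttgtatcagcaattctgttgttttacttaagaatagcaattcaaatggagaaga
CG11155 region: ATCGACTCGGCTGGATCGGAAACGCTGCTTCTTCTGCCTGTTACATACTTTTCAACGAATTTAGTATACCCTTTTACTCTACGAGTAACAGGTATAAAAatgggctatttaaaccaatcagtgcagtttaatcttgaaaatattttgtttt

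Regions listed on chromosome 4 were thresholded less often than regions elsewhere, although they were listed at least as densely. In the pooled list 24 of 352 (6.82%, 95% Wilson interval 4.62 to 9.94, which covers counting of regions only) overlapped a thresholded peak. The share was 16.6% over all other chromosomes (4929 of 29648) and 16.5% over the whole list. Each large arm stood higher than chromosome 4, from 14.8% on 3L to 18.6% on 3R. Pericentric sequence, the heterochromatin next to the centromeres of those arms, stood lower, at 3.53% (93 of 2634, interval 2.89 to 4.31). Per Mb, chromosome 4 held 261 listed regions, against 224 on the other arms together. By arm these ran from 192 on 3R to 261 on 2R, so 2R was as dense as chromosome 4. Thresholded peaks numbered 14.1 per Mb on chromosome 4, against 28.4 to 31.8 on the other arms.

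The replicates' own lists gave the same order. In each, a region was called strong where it overlapped one of that replicate's 4055 strongest regions. Over all chromosomes 16.7%, 16.6% and 16.4% of the regions of replicates 1, 2 and 3 were strong. On chromosome 4 the share was 7.16% (24 of 335), 4.76% (18 of 378) and 7.44% (23 of 309) in replicates 1, 2 and 3, against 16.8%, 16.7% and 16.4% on the other chromosomes. Chromosome 4 was thus below the others in each replicate, and the groups did not overlap. The means were 6.46% ± 1.47 on chromosome 4 and 16.7% ± 0.197 elsewhere (SD, n = 3), and the difference of -10.2 ± 1.55 percentage points exceeded the spread between replicates. A two-sided exact sign-flip permutation test over the 3 replicates gave p = 0.25, the smallest value that 3 replicates allow, so no such test here can pass 0.05. The reference set decides the direction: against pericentric regions (5.58%, 3.40% and 6.74% in replicates 1, 2 and 3) chromosome 4 was higher by 1.22 ± 0.457 points (exact p = 0.25). Counting only the 2027 strongest regions as strong reduced the difference from the other chromosomes to -4.33 points, a setting that lowers every share by construction.

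**Figure D1:**
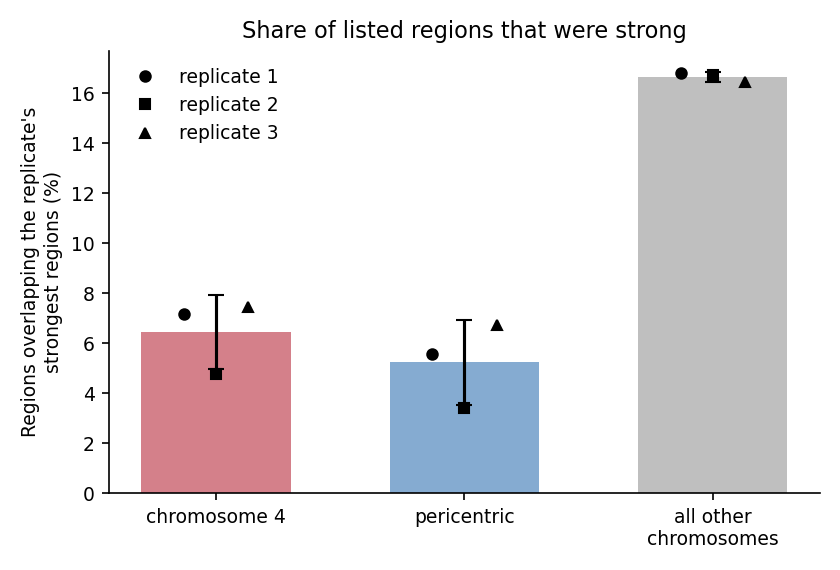
Percent of listed regions that overlapped the replicate's 4055 strongest regions, for chromosome 4, pericentric sequence of the large arms, and all other chromosomes (which include the pericentric regions). Bars are means, error bars SDs and symbols the 3 replicates; the chromosome 4 points lie between 4.76% and 7.44% and those of all other chromosomes between 16.4% and 16.8%.

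The density of listed regions differed less clearly. Chromosome 4 held 248, 280.4 and 229 regions per Mb in replicates 1, 2 and 3, against 223.8, 223.5 and 224.0 on the other arms. The difference of 28.9 ± 26.1 per Mb (SD, n = 3; exact sign-flip p = 0.25) was positive in each replicate but close to its own spread.

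The signal of the typical chromosome 4 region was slightly low, whereas that of its strongest regions was not. Signal is the value that the authors' peak caller gave a region. Its scale is not stated, so it is compared here within a list. The pooled median was 46.9 on chromosome 4 and 53.0 on all other chromosomes. In replicates 1, 2 and 3 the chromosome 4 median was 0.939, 0.912 and 0.931 times the list's median, below the other chromosomes in each. The log2 difference was -0.11 ± 0.0229 (SD, n = 3; exact sign-flip p = 0.25), and -0.34 with means in place of medians. Among the regions that did rank with the 4055 strongest (18, 17 and 18 on chromosome 4), the median signal was 3.54 ± 0.423 times the list's on chromosome 4 and 2.98 ± 0.240 times elsewhere. There chromosome 4 was higher in each replicate, by 0.25 ± 0.0747 on the log2 scale (SD, n = 3; exact sign-flip p = 0.25). In the pooled list the 19 peaks had a median signal of 209, against 181 for the peaks of other chromosomes. Of the 19, 10 (52.6%, interval 31.7 to 72.7) belonged to the 2027 strongest peaks of the thresholded list. That set is 2027 of 4055 peaks by construction, so the count was near the share over all peaks. The strongest peak of chromosome 4 ranked 277 of 30000, with a signal of 512, where the highest signal anywhere was 3827. Only 19 of the 4055 peaks lay on this chromosome, and whether that rank is low for so few was not tested.

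None of the first 5 peaks of chromosome 4 by signal was at a start site. That was taken as a summit no more than 500 bp from the start site of a protein-coding gene, which the pho peak missed narrowly, at 507 bp. Of the peaks of other chromosomes, of all strengths, 51.5% were at a start site. Whether 0 of 5 departs from this was not tested. The relative signals that follow are the signal over the median of that replicate's list.

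The strongest peak, whose sequence is given above, lay between dati and lgs, 19089 bp from the lgs start site. The gene lgs encodes legless, the fly BCL9 protein of Wingless signalling. The peak's relative signal was 7.77, 8.94 and 7.24 in replicates 1, 2 and 3, a mean of 7.98 ± 0.869 (SD, n = 3). Second was a peak at chr4:1113197-1113470 with 7.06, 9.86 and 6.10 in replicates 1, 2 and 3 (mean 7.67 ± 1.95). Its summit fell in an annotated UTR of Cals, the gene of the cadherin-family protein calsyntenin, 9629 bp from that gene's start site. The same summit was 19 bp past the annotated end of sv, the fly Pax2 gene, which runs towards Cals, so the peak lies where both genes end. These were the only chromosome 4 peaks above 7 times the list median on average.

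The next 3 stood upstream of zfh2, pho and fuss. The zfh2 peak (zfh2 encodes a zinc-finger homeodomain protein) lay 3921 bp upstream and had relative signals of 4.76, 7.30 and 5.64 in replicates 1, 2 and 3 (mean 5.90 ± 1.29). The pho peak was 507 bp upstream, just outside the 500 bp that count as a start site, at 5.08, 4.71 and 4.09 (mean 4.63 ± 0.497). The gene pho encodes pleiohomeotic, the DNA-binding protein related to mammalian YY1 that brings Polycomb complexes to their response elements. The fuss peak (chr4:982743-983166) was 4466 bp upstream, at 3.93, 5.07 and 3.74 (mean 4.25 ± 0.722). The gene fuss encodes a corepressor of the Ski and Sno family. All 5 of these peaks were among the strongest regions of each replicate.

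The strongest start-site peaks followed, at gw, RpS3A and Sox102F, with a peak 532 bp upstream of Asator between them in signal. The first of them was at gw (chr4:659971-660394), the gene of the GW182 protein of microRNA silencing, 200 bp upstream of a start site. It had relative signals of 3.85, 4.98 and 3.14 in replicates 1, 2 and 3 (mean 3.99 ± 0.926). The peak at RpS3A (chr4:67030-67453), a gene for a protein of the small ribosomal subunit, lay 35 bp upstream and had relative signals of 3.10, 4.51 and 4.06 (mean 3.89 ± 0.723). The peak at Sox102F (chr4:807350-807773), a gene for a SoxD-type transcription factor, lay 215 bp upstream of a start site and had 4.53, 3.27 and 3.57 (mean 3.79 ± 0.659). These 3 also ranked with the strongest of each replicate, and their means differed by less than their SDs.

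Weaker start-site peaks stood near 2 times the list median. The PlexA peak (chr4:1027040-1027463; PlexA encodes a semaphorin receptor) had 2.36, 2.06 and 2.25 in replicates 1, 2 and 3, the least varied of all 19, at a mean of 2.22 ± 0.149. One summit at chr4:1031615-1032038 was at start sites of both ATPsynbeta, a mitochondrial ATP synthase subunit gene, and its neighbour CG11076 (2.19, 1.74 and 2.15; mean 2.02 ± 0.252). The kinase gene CaMKII, for the calcium- and calmodulin-dependent kinase of synapses, had peaks at both of its start sites. Its peak at chr4:1051178-1051601 gave 1.40, 2.03 and 2.09 (mean 1.84 ± 0.383). The peaks at Arl4, for an Arf-like small GTPase (chr4:179276-179699; 1.72, 2.23 and 1.70; mean 1.89 ± 0.300), and at Gyf, for a GYF-domain protein (chr4:866904-867327; 1.98, 1.50 and 2.24; mean 1.91 ± 0.378), closed the list with pooled signals of 125 and 122. The lowest thresholded signal on any chromosome was 119.

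Asator, the gene of a kinase related to tau tubulin kinase, was the gene with the most peaks around it. One was 532 bp upstream of a start site (chr4:489314-489737; 3.38, 4.03 and 4.63 in replicates 1, 2 and 3; mean 4.01 ± 0.625). Another lay in an intron (chr4:486489-486912; 3.64, 4.37 and 1.54; mean 3.18 ± 1.47). The third, at a start site, was weaker (chr4:481486-481909; 1.58, 2.35 and 1.53; mean 1.82 ± 0.461). Only the first of the 3 was among the strongest regions of every replicate.

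For 4 of the 19 peaks the replicates differed by more than 2 times. The intronic Asator peak and the other CaMKII peak (chr4:1053682-1054105; 3.04, 3.12 and 1.22; mean 2.46 ± 1.07) were low in replicate 3. The peak in an intron of myo, which encodes the TGF-beta family ligand myoglianin, was near the list median in replicate 1 and highest in replicate 2, with replicate 3 midway (chr4:694863-695286; 1.05, 3.32 and 2.20; mean 2.19 ± 1.14). The ey peak, 744 bp upstream of the Pax6 gene ey, was high in replicate 3 (chr4:696733-697156; 1.73, 1.51 and 3.60; mean 2.28 ± 1.15). In these 4 the highest replicate was 2.39 to 3.16 times the lowest, against 1.14 to 1.62 times in the other 15.

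**Figure D2:**
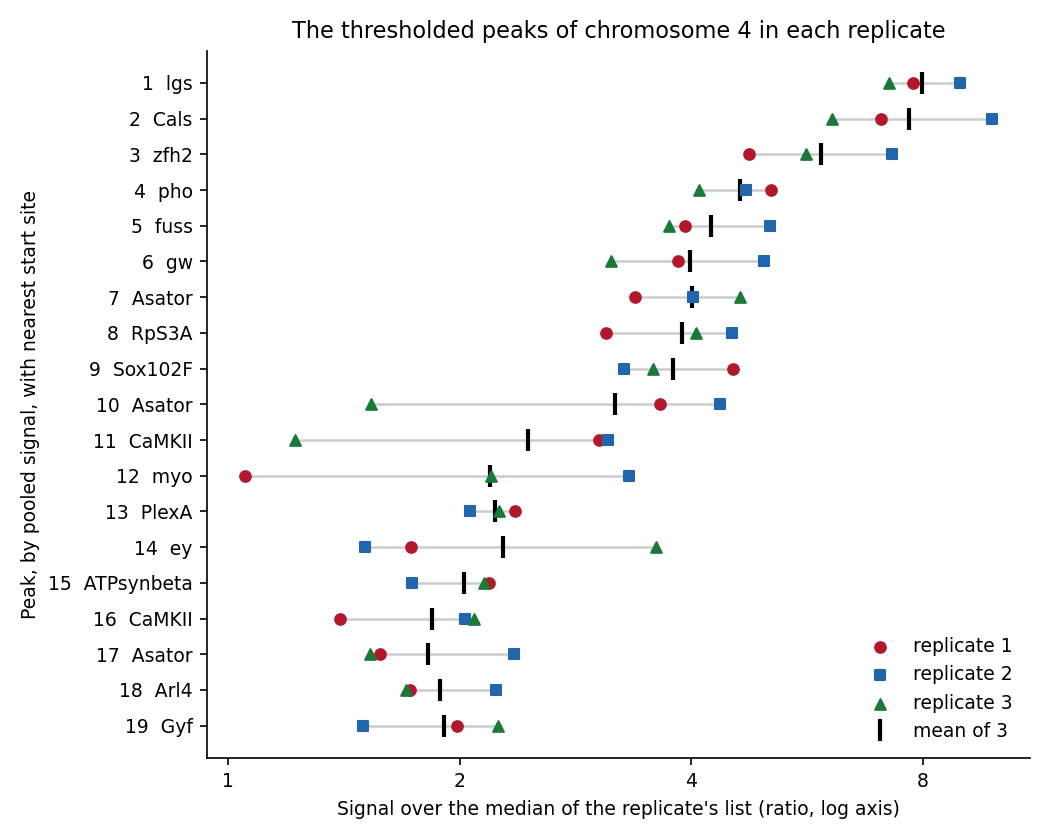
Signal of each of the 19 thresholded chromosome 4 peaks over the median of the replicate's list (log axis), by pooled signal from strongest at the top, labelled with the gene of the nearest start site. Symbols are the 3 replicates and the black tick their mean; the lgs peak stands at 7.24 to 8.94, and the widest spread is at the myo peak, from 1.05 to 3.32.

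All 19 peaks had a region in each replicate's list, from which, with the pooled list, the thresholded set was itself derived. Of them 9 ranked with the strongest in all 3 replicates (47.4%, interval 27.3 to 68.3), 5 of 2 and 5 of 1. For the peaks of other chromosomes these shares were 58.9%, 27.2% and 13.1%. The 328 other regions were less often found again: 76 (23.2%) had a region in all 3 lists, 136 (41.5%) in 2, 103 (31.4%) in 1 and 13 (3.96%) in none. These shares were near those of the unthresholded regions elsewhere, at 25.9%, 41.6%, 29.0% and 3.57%. Among the 328, 9 ranked with the strongest regions of 1 replicate and 0 with those of 2 or 3. As a description across regions, which share libraries and are not replicates, Spearman's rho between replicates over the 19 peaks was 0.798 (1 and 2), 0.721 (1 and 3) and 0.640 (2 and 3). Over the other regions found in both lists it was 0.107 (n = 128), 0.251 (n = 117) and 0.110 (n = 119). For the unthresholded regions elsewhere it was 0.267 (n = 10251), 0.232 (n = 9288) and 0.245 (n = 9923). The peaks had been selected for reproducibility between these same replicates, so their higher values cannot be read as a result.

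The threshold ran through a continuous range of signal. Against pooled signals of 125 at Arl4 and 122 at Gyf, just inside, a region 34 bp upstream of an ey start site had 116 (chr4:697443-697866; relative signals of 1.18, 2.40 and 1.52 in replicates 1, 2 and 3). A region at another Sox102F start site had 112 (chr4:833974-834397; 1.40, 1.60 and 2.32). A region 42 bp upstream of PlexB, the gene of the other plexin, had 105 (chr4:43608-44031; 1.90, 1.24 and 1.87). In every replicate the range of these 3 overlapped that of the Arl4 and Gyf peaks. The next were at CG32017 (103), in introns of zfh2 (103) and of dati, a zinc-finger gene (103), upstream of fuss (98.5) and of dati (97.1), at mav, a TGF-beta family ligand gene (95.7), and in a UTR of onecut, a homeodomain gene (94.4).

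Thresholded regions lay at start sites more often than the rest of chromosome 4. Of the 24, 14 (58.3%, interval 38.8 to 75.5) were at a protein-coding start site, against 70 of the 328 others (21.3%, interval 17.3 to 26.1). Of the 19 peaks alone it was 10 (52.6%), where peaks of other chromosomes gave 51.5%. The 5 added regions lie beside peaks at Sox102F, ATPsynbeta, CaMKII, PlexA and myo, and 4 of them repeat a start site already counted. In replicates 1, 2 and 3 the strong regions gave 50.0% (12 of 24), 44.4% (8 of 18) and 60.9% (14 of 23), against 20.6%, 19.2% and 17.5% for the other regions of the chromosome. The strong regions were higher in each replicate, with means of 51.8% ± 8.35 and 19.1% ± 1.55, and the difference of 32.7 ± 9.49 points exceeded the replicate spread (SD, n = 3; exact sign-flip p = 0.25). Against the strong regions of other chromosomes (51.3% ± 1.25) the chromosome 4 share differed by 0.494 ± 7.62 points, from -5.41 to 9.09 (exact sign-flip p = 1), so the sign varied between replicates. The pooled list had a like gap on the other chromosomes, with 52.0% of thresholded regions (2561 of 4929) and 24.7% of the rest (6107 of 24719) at start sites.

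The pooled chromosome 4 difference of 37.0 points depended on the choice of regions. It was 15.2 without replicate 1 and 18.4 without replicate 3, where a region had to be among the strongest of both remaining replicates, and 12.9 for the 2027 strongest thresholded peaks. Of the 10 start-site peaks, 9 were upstream, with a median summit position of -95 bp relative to the start site, and for 8 the distance was 200 bp or less.

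Coding exons away from start sites held none of the 24 thresholded regions, which allows a share of up to 12.5% by the rule of 3 counts for a count of 0 (13.8% by the Wilson limit), but 94 of the 328 others (28.7%, interval 24.0 to 33.8). Introns held 2 of the 24 (8.33%) and 95 of the 328 (29.0%). Sequence between genes held 6 of the 24 (25%, interval 12.0 to 44.9) and 45 of the 328 (13.7%, interval 10.4 to 17.9), and those intervals overlap. UTRs held 2 of the 24 and 9 of the 328, and non-coding genes 0 and 15. Each summit was given 1 class, with start sites taken first. Classes other than start sites were not set beside those of other chromosomes.

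**Figure D3:**
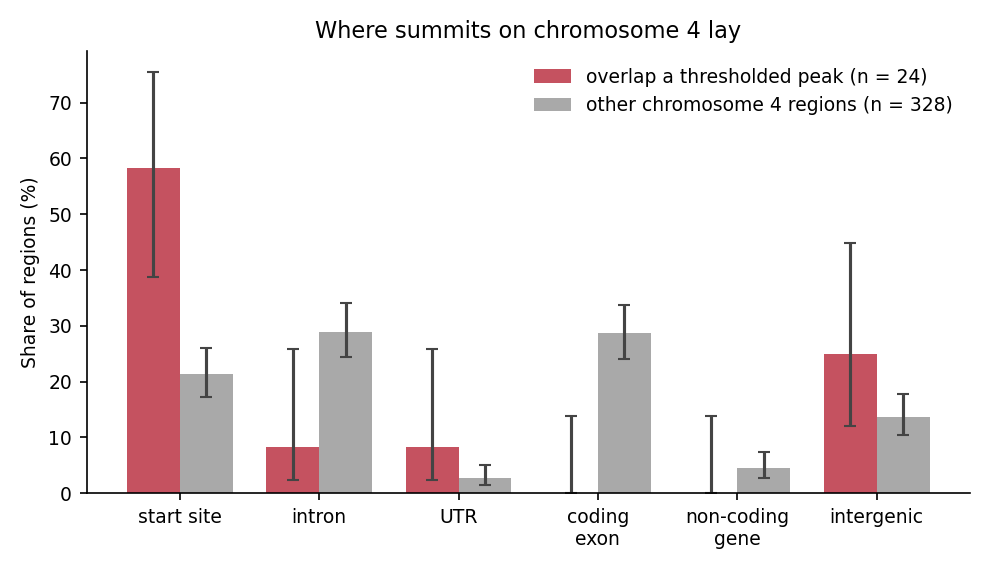
Percent of chromosome 4 regions by the annotation under the summit, for the 24 that overlap a thresholded peak and the 328 that do not; error bars are 95% Wilson intervals, which count regions only. Start sites hold 58.3% against 21.3%, and coding exons 0 of 24 against 28.7%.

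Base composition differed with these classes. The median GC content within 100 bp of the summit was 35.8% for the 24 thresholded regions and 40.3% for the other 328, where the whole chromosome has 35.2%. At start sites it was 36.1% for both the peaks and the other regions, and the other regions in coding exons had 45.0%. Its part in the difference of signal was not tested.

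Mobile elements, which fill 24.8% of the bases of chromosome 4, held none of the thresholded summits. They held 0 of 24, which allows up to 12.5% by the rule of 3 counts and 13.8% by the Wilson limit, against 51 of the 328 others (15.5%, interval 12.0 to 19.9). Those Wilson intervals overlap. Of these 51 summits, 25 lay in INE-1, 4 in gypsy7 and 2 in the 1360 element, and the others in the remaining families, 15 families in all. INE-1 has 344 annotated copies on the chromosome and 7.22% of its bases, close to the 7.62% of the other regions with a summit in it. The CG11155 region shown above is one of them, with a pooled signal of 58.1. The 1360 element, which can bring about silencing when placed beside a reporter gene, has 60 copies and 3.79% of the bases but 0.610% of those regions. In replicates 1, 2 and 3 elements held 0 of 24, 18 and 23 strong regions and 18.3%, 15.0% and 13.6% of the others. The share was thus lower for strong regions in each replicate, from few strong regions. The difference was -15.7 ± 2.41 points (SD, n = 3; exact sign-flip p = 0.25). The unthresholded regions of chromosome 4 lay in elements more often than those of other chromosomes (2.16% ± 0.147), by 13.5 ± 2.35 points (exact p = 0.25). Strong regions of other chromosomes were rarely in elements too, at 0.897% ± 0.340 over replicates (SD, n = 3). In the pooled list it was 32 of 4929 there (0.649%), so a low share was not particular to chromosome 4.

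With repeats taken as masked bases, the difference no longer had a uniform direction. Bases masked in the genome sequence, which include simple runs as well as elements, held the summit of 3 of the 24 (12.5%) and of 51 of the 328 (15.5%, 20 of them also in an element). In the replicates strong regions were then higher by 3.54 points on average (exact sign-flip p = 0.5), against -3.05 points in the pooled list. The replicates did not all differ in the same direction. The placing of reads from repeated sequence is not stated in the sources used here, so fewer countable reads and less binding in elements cannot be told apart.

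Neither the thresholded peaks nor the other regions were evenly placed along the chromosome, and whether the peaks cluster beyond chance was not tested. In 10 equal segments from its first annotated base, chromosome 4 held 1, 1, 0, 5, 1, 3, 1, 5, 2 and 0 peaks, and 23, 28, 26, 41, 43, 53, 27, 37, 32 and 18 of the other regions. The first and last peak summits were at 67242 (RpS3A) and 1182135 (pho), while listed summits ran from 3323 to 1318843 of 1348131 bp. Between the Arl4 and lgs peaks, at 179488 and 424822, no peak was thresholded over 245 kb, although 43 other regions were listed there. Stretches in which neighbouring peaks lay within 20 kb of each other numbered 3 and held 10 of the 19 peaks. They were Asator to zfh2 (4 peaks over 16.2 kb), myo and ey (2 peaks over 1.87 kb) and PlexA to CaMKII (4 peaks over 26.6 kb). The lower-numbered side of the midpoint held 8 of 19 peaks (42.1%, interval 23.1 to 63.7) and 161 of 328 other regions (49.1%), so the sides could not be told apart.

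**Figure D4:**
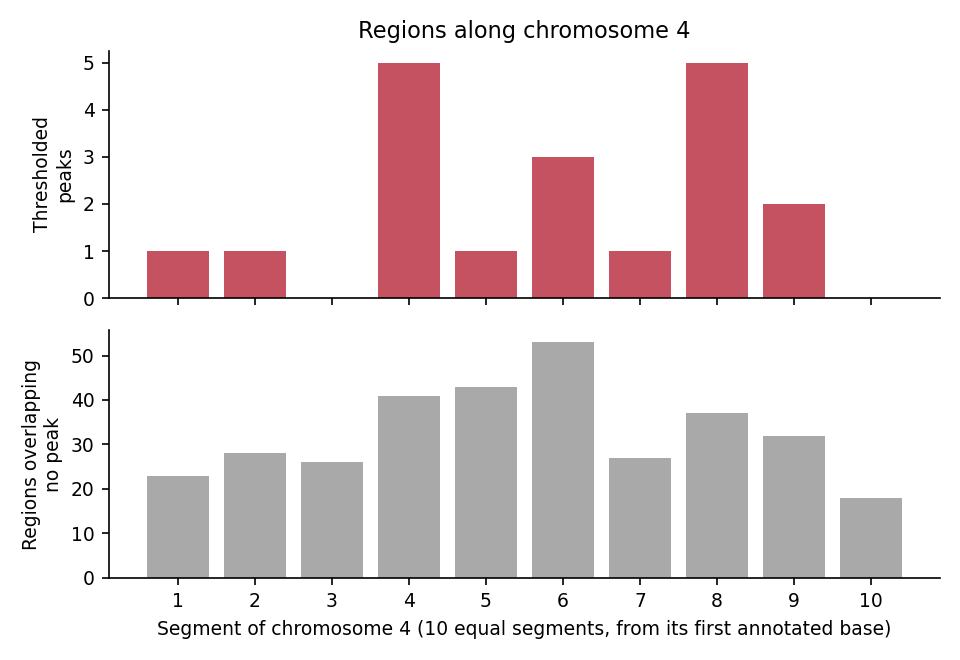
Number of thresholded peaks (top) and of regions that overlap no peak (bottom) in each of 10 equal segments of chromosome 4. Segments 4 and 8 hold 5 peaks each and segments 3 and 10 hold 0, while the other regions range from 18 to 53.

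Most genes of chromosome 4 had a listed region at a start site, but few genes there or elsewhere had a thresholded one. Of its 80 protein-coding genes, 62 (77.5%, interval 67.2 to 85.3) had any listed region at a start site, against 7184 of 13888 genes elsewhere (51.7%) and 51.9% of all genes. A thresholded summit was there in 10 (12.5%, interval 6.93 to 21.5), against 2567 of 13888 (18.5%) and 18.4% of all genes. That interval includes both of these shares. In replicates 1, 2 and 3 any region was at 72.5%, 67.5% and 60% of chromosome 4 genes, against 51.3%, 51.5% and 50.4% of the others, so chromosome 4 was higher in each, by 15.6 ± 5.81 points (SD, n = 3; exact sign-flip p = 0.25). One of the 4055 strongest regions was at 12.5%, 8.75% and 13.8% of chromosome 4 genes in replicates 1, 2 and 3 (mean 11.7% ± 2.60), against 18.3% ± 0.528 elsewhere. Chromosome 4 was lower there in each replicate, with a difference of -6.64 ± 2.14 points (exact p = 0.25). The 10 genes became 4, 6 and 4 without replicates 1, 2 and 3, where a peak had to be among the strongest of both remaining replicates, and 3 among the 2027 strongest thresholded peaks.

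**Figure D5:**
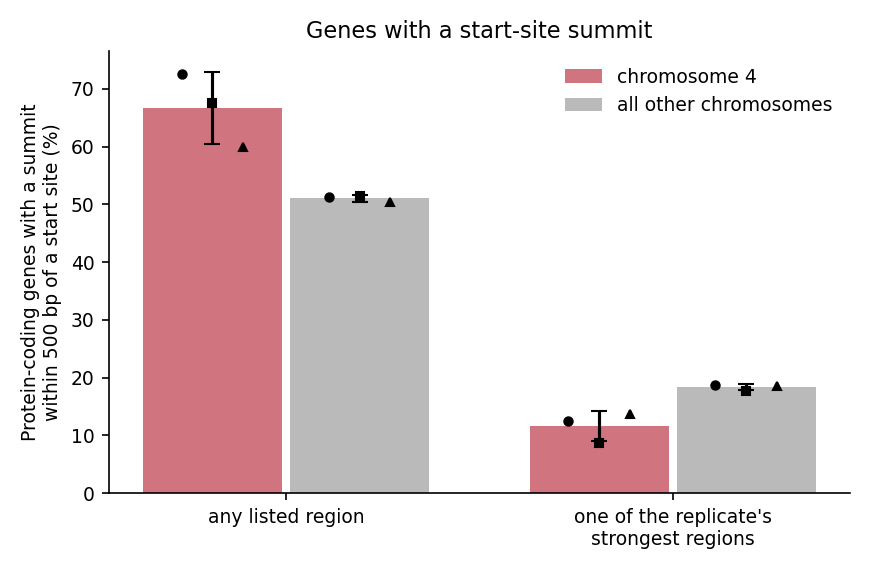
Percent of protein-coding genes with a start-site summit (500 bp or nearer), for any listed region and for the replicate's 4055 strongest regions, on chromosome 4 and on all other chromosomes; bars are means, error bars SDs and symbols the 3 replicates (circle 1, square 2, triangle 3). Chromosome 4 stands above the others for any region (60% to 72.5%) and below them for the strongest (8.75% to 13.8%).

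The 10 genes with a start-site peak were Arl4, RpS3A, CaMKII, Gyf, Asator, CG11076, PlexA, gw, ATPsynbeta and Sox102F. Cals and myo held a peak inside the gene alone, 51 genes had a start-site region without a peak, and 9 a region inside only. The remaining 8 genes, among them sv, Eph (an ephrin receptor), NfI (a transcription factor) and RhoGAP102A, had no listed summit in the gene or at a start site. Genes were assigned by summits alone: the second strongest peak reaches into the end of sv, but its summit lies past it. The 4 role lists of chromosome 4 genes, which were drawn up with earlier results of these data known, are described by their counts beside the shares of all 80 genes, 12.5% with a start-site peak and 77.5% with any start-site region. The lists hold 50 of the 80 genes and, of the 10 with a start-site peak, all but CG11076. A share above 12.5% therefore cannot be separated from which genes were listed.

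Widely used cell functions had a start-site peak in 5 of 11 genes (RpS3A, ATPsynbeta, Arl4, gw and Gyf) and a start-site region in all 11. The strongest of those without a peak were Tdg, the gene of thymine DNA glycosylase (84.9), and Rad23, of nucleotide excision repair (62.8). Signalling genes had one in 3 of 14 (PlexA, CaMKII and Asator, with myo holding a peak inside the gene) and a start-site region in 10 (71.4%). PlexB and mav led those without. Transcription regulators had one in 1 of 17, Sox102F, and a start-site region in 13 (76.5%). The peaks upstream of zfh2, pho and ey lie outside 500 bp and are not in this count. Neuronal and synaptic genes had 0 of 8 at a start site and 1, Cals, with a peak inside, and a start-site region in 5 (62.5%). Of this list, unc-13 and Cadps, both of synaptic vesicle release, had the strongest other regions (82.4 and 78.3). Lists of 8 to 17 genes give wide intervals, such as 21.3 to 72.0% for 5 of 11 and 1.05 to 27.0% for 1 of 17.

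Of the 6 motifs searched, 3 had a match under a chromosome 4 peak. They were sought in the 100 bp to each side of a summit, on either strand. The DRE letters TATCGATA, bound by DREF and by BEAF-32, were under 2 of 19 peaks (10.5%, interval 2.94 to 31.4), 11 of the 328 other regions (3.35%) and 4.83% of the peaks elsewhere (1.55% of the unthresholded regions there). In the PlexA sequence shown above the letters lay 62 bp upstream of the start site and 89 bp from the summit. In the ey sequence they lay 751 bp upstream and 7 bp from the summit. The M1BP core GGTCACAC, the GAGA factor letters GAGAGAGA and the run CACACACA were under 0 of 19 peaks each, which allows up to 15.8% by the rule of 3 counts and 16.8% by the Wilson limit, and under 3.07%, 2.28% and 4.19% of the peaks elsewhere. The Zelda letters CAGGTAG were under 1 of 19 peaks (5.26%) and 0.867% of those elsewhere, and AAAAAAAA under 3 (15.8%) and 13.4%. The M1BP core ends in letters that can begin a CACACACA run, and otherwise no motif holds another. Each share of the 19 peaks rests on 0 to 3 matches, and a match describes letters, not binding of a factor.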

How the data were processed

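Su(var)3-7-GFP ChIP-seq was represented by 3 biological replicates, with the numbers the labels give them. The deposited inventory texts say that the authors listed relaxed regions per replicate and pooled, with 1 control file, and a thresholded list was derived by the irreproducible discovery rate. For the aligner, peak caller, threshold and read filters, the names and settings were not given in the sources used here. Signal is the value the authors deposited per region, on an unstated scale, and was used within a list or after division by its median. Read depth is unknown, so no value has an interval for depth, and control reads were not analysed here.

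Coordinates are dm6, 1-based. Every summit fell inside the reference chromosome lengths. Start sites and classes came from Ensembl release 115 (BDGP 6.54, 13968 protein-coding genes) and repeats from the RefSeq genome of Release 6, as annotated elements or masked bases. Round boundaries set the pericentric sequence: beyond 22 Mb on 2L and X, beyond 23 Mb on 3L, below 5.7 Mb on 2R and below 4.2 Mb on 3R. A peak matched a replicate region with a summit within 200 bp. Differences per replicate were tested by two-sided exact sign-flip permutation.

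Members, role lists and tests were chosen with earlier results of these data known. Named genes were those at or holding a thresholded summit, those of the 10 strongest other regions, and of each role list the members with a peak and up to 2 others with the strongest region; sv, Eph, NfI, RhoGAP102A, ci and CG11155, and lgs and pho as nearest genes, were named after their values were seen. Alternatives were other windows, overlaps, thresholds, reference sets, dm3 lists and leaving out each replicate. Functions were tested on simulated regions. Python 3.11.15, NumPy 2.4.6, pandas 2.3.3, SciPy 1.17.1 and matplotlib 3.10.9 were used.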

Additional observations from a re-analysis of the deposited data

How the results depend on the processing

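Of the alternatives to the summary values, 3 reversed and the others kept their direction; with 3 replicates or 2 no test could pass its threshold, so no call could change. Against pericentric regions the difference in strong share reversed, to 1.22 points over replicates and 3.29 in the pooled list. With masked bases in place of elements, the mean replicate difference reversed to 3.54 points, without the same direction in all replicates. The pooled difference moved to -3.05. Keeping the 2027 strongest peaks moved the pooled strong-share difference to -5.25 points (from -9.81 in full), the start-site difference to 12.9 (from 37.0) and the genes with a start-site peak to 3 (from 10). Windows of 200 and 1000 bp gave pooled start-site differences of 23.5 and 54.1 points, and 19.5 and 47.4 over replicates (32.7 in full). Means in place of medians gave a pooled log2 signal difference of -0.42 (from -0.18). Leaving out a replicate gave pooled strong-share differences of -8.87 to -7.76, start-site differences of 15.2 to 34.7 points and 4 to 6 genes. These settings hold fewer regions by construction, since a region had to be strong in both replicates left. The cause of the other shifts was not tested. On dm3 the strong-share difference was -10.5 points over replicates. No leave-out value exists for the pooled signal. No paired analysis was possible because all samples form 1 group, so that replicate numbers join no samples of different groups; the differences tested are between sets of regions of the same replicate. Unknown depth and 19 peaks limit precision.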

Other observations

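A search over words of 6 letters, made after the values were seen, found TTCCAA, on either strand, as the word with the largest gap in share between the 19 chromosome 4 peaks and the other 328 regions. It lay within 100 bp of 10 of the 19 summits (52.6%), against 50 of the 328 (15.2%), 16.5% of the peaks of other chromosomes and 12.0% of the unthresholded regions there. The word was chosen for this gap, so the values are a description without a test.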
